A study of Homo sapiens with 10 samples.

Results

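The WNT module examined here comprised 50 genes: 19 WNT ligands, 10 Frizzled (FZD) receptors, the 5 other receptors and coreceptors LRP5, LRP6, ROR1, ROR2 and RYK, 10 inhibitors (4 DKK, 4 SFRP, WIF1 and the DKK receptor KREMEN1), and the 6 intracellular members AXIN1, AXIN2, CTNNB1, LEF1, TCF7L1 and TCF7L2. They were chosen by gene symbol from 18377 genes that the array measures by a transcript cluster under a single name, a transcript cluster being the set of probes summed for 1 gene. DKK3 was the only member with 2 clusters, and the brighter was used. TCF7 was not analysed here.

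Affymetrix Human Gene 1.0 ST arrays were used on RNA of 10 samples of BEAS-2B cells, an immortalized human bronchial epithelial cell line, with 1 array per sample and no technical replicates. The 3 Cr_small and 3 Cr_large lines came from BEAS-2B cells kept in 0.5 µM potassium chromate, a source of hexavalent chromium, for 30 days and then grown for 3 weeks in soft agar, which lets only cells that need no attachment form colonies. Cr_large lines were picked as large colonies and Cr_small lines as colonies matched in size to those of untreated cells. The 3 control lines were colonies that untreated BEAS-2B cells formed in soft agar, so they share the agar and the picking with the Cr lines but not the chromate. The parental sample was BEAS-2B cells that had not been through agar, on 1 array. Each line was expanded from 1 colony and is 1 clone. The labels give the same treatment text for every array, so groups were taken from the titles. Nothing in the descriptions says that the exposure was repeated, and p-values therefore measure the spread between lines picked from these cultures.

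Values are log2 intensities. Array medians lay between 5.82 and 5.90, and the median of all values was 5.86. Of the epithelial markers, 8 of 9 listed genes were measured. KRT18, a keratin of simple epithelia, lay between 11.91 and 12.31 in the Cr lines, between 11.19 and 11.47 in the control lines and at 11.53 in parental cells. The epithelial marker EPCAM, the epithelial cadherin CDH1 and the basal keratin KRT5 were below the overall median on every array. KRT7, KRT8 and KRT18 were higher in Cr lines than in control lines, while KRT19, which did not pass (adjusted p = 0.235), spread from 5.79 to 10.07 in Cr lines, against 6.07 to 6.27 in control lines and 7.58 in parental cells. The summed log2 level of the list, which holds KRT19, was 63.4 to 69.6 in Cr lines, 62.2 to 62.9 in control lines and 64.6 in parental cells. The part of the keratin differences in the WNT results below was not tested. None of the 8 mesenchymal, 5 endothelial and 4 blood markers measured passed the test in Cr against control. Levels of the mesenchymal markers were mixed. VIM averaged 11.9 in Cr lines and 11.7 in control lines, with 11.4 in parental cells. COL1A1 averaged 11.0 in Cr lines and 11.3 in control lines, with 10.6 in parental cells. COL3A1, DCN, LUM and PDGFRA were below the overall median on every array, and COL1A2 and PDGFRB averaged between these levels.

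WNT proteins are secreted ligands that bind Frizzled receptors. With the coreceptors LRP5 and LRP6 they stabilize β-catenin (CTNNB1), which otherwise is bound by AXIN scaffolds and degraded, and which acts in the nucleus with TCF and LEF proteins. Other WNT proteins, WNT5A among them, act largely without β-catenin, through ROR and RYK receptors and the planar cell polarity branch. DKK proteins block the LRP coreceptors, and SFRP proteins and WIF1 bind the ligands. In the lung the pathway is known for its part in airway development, repair and cancer.

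Chromate-exposed lines were first set against the control lines, which asks what sets colonies of exposed cells apart from colonies that arose without chromate. DKK1, FZD6, WNT5A and FZD8 were higher in the 6 Cr lines and TCF7L2 was lower, at an adjusted p under 0.05 from limma. These 5 genes are 10% of the 50 members, against a background of 11.0% of all 28869 transcript clusters (5.33% higher and 5.72% lower), so the module as a whole changed about as often as the rest of the array. The median log2 difference of the members was 0.06, beside 0.01 for all clusters. By class, 1 of 19 ligands, 2 of 10 Frizzled receptors, 0 of 5 coreceptors, 1 of 10 inhibitors and 1 of 6 intracellular members passed, and 12 of 50 members (24%) had an unadjusted p under 0.05, against 24.4% of all clusters. For 9 members (18%) all Cr lines lay on one side of all control lines, 8 of them higher and 1 lower, against 16.7% of all clusters (8.85% higher and 7.84% lower). The 13 members whose values were below the overall median on every array included 7 ligands and 5 inhibitors.

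**Figure D1:**
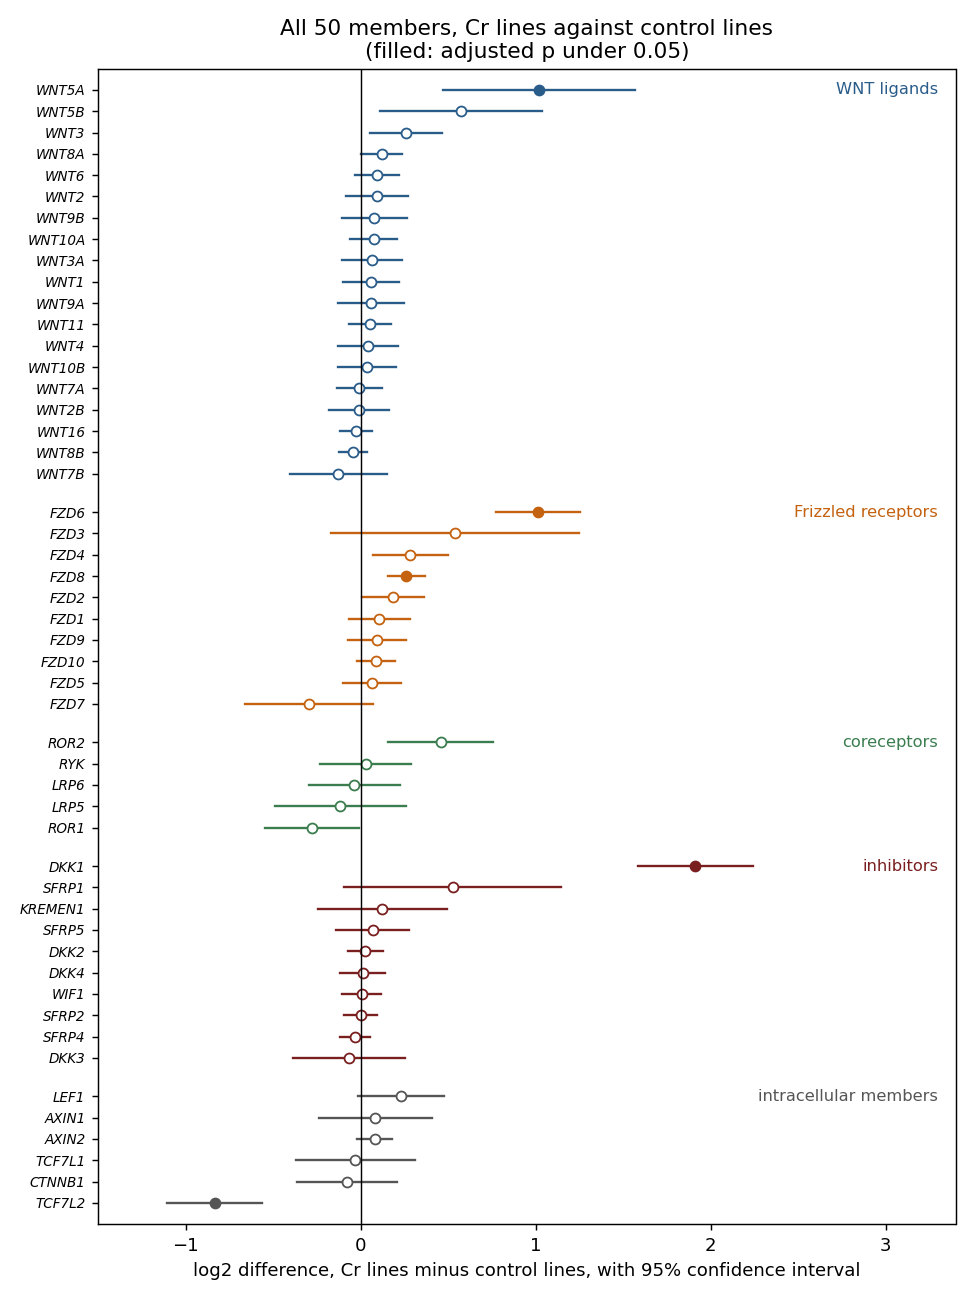
Difference in log2 intensity between the 6 Cr lines and the 3 control lines for each of the 50 members, grouped by role, with 95% confidence intervals as bars. Filled points passed the adjusted threshold, from 1.91 for DKK1 to -0.83 for TCF7L2, and most of the open points lie close to 0.

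Among the ligands, WNT5A, a ligand of the branch without β-catenin, was low in control lines and higher in Cr lines. Its log2 intensity was 6.77, 5.46 and 6.11 in Cr_small lines and 6.02, 6.01 and 6.22 in Cr_large lines, against 5.12, 5.07 and 5.05 in the control lines, with 5.45 in parental cells. No Cr line overlapped a control line, but Cr_small line 2 stood at the parental level while Cr_small line 1 was the highest of all. The means were 6.10 ± 0.42 in Cr lines (SD, n = 6) and 5.08 ± 0.038 in control lines (SD, n = 3), a difference of 1.02 (SE 0.24) or 2.03-fold with an adjusted p of 0.0307. The call was lost when any control line, any Cr_large line or Cr_small line 3 was left out (adjusted p between 0.0513 and 0.106), and also with the methods' t-test once adjusted by Benjamini-Hochberg (adjusted p = 0.0568). The level is close to the floor of the array, and with the constant of the normalization subtracted the difference was 1.54.

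WNT5B, the closest relative of WNT5A, had log2 intensities of 8.29, 8.71 and 8.81 in Cr_small lines and 9.24, 8.51 and 8.32 in Cr_large lines. The control lines had 8.12, 8.09 and 8.02, and parental cells 6.98. All Cr lines were above all control lines, and all 9 lines were above the parental array. The difference between Cr and control lines was 0.57 (95% confidence interval 0.11 to 1.04) and did not pass the test (adjusted p = 0.121). The remaining 17 ligands had differences between -0.13 for WNT7B and 0.26 for WNT3, none of which passed in any comparison. WNT3, a ligand of the β-catenin branch, and WNT8A were also without overlap between Cr and control lines, with adjusted p of 0.116 and 0.190. WNT8A was below the overall median on every array.

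**Figure D2:**
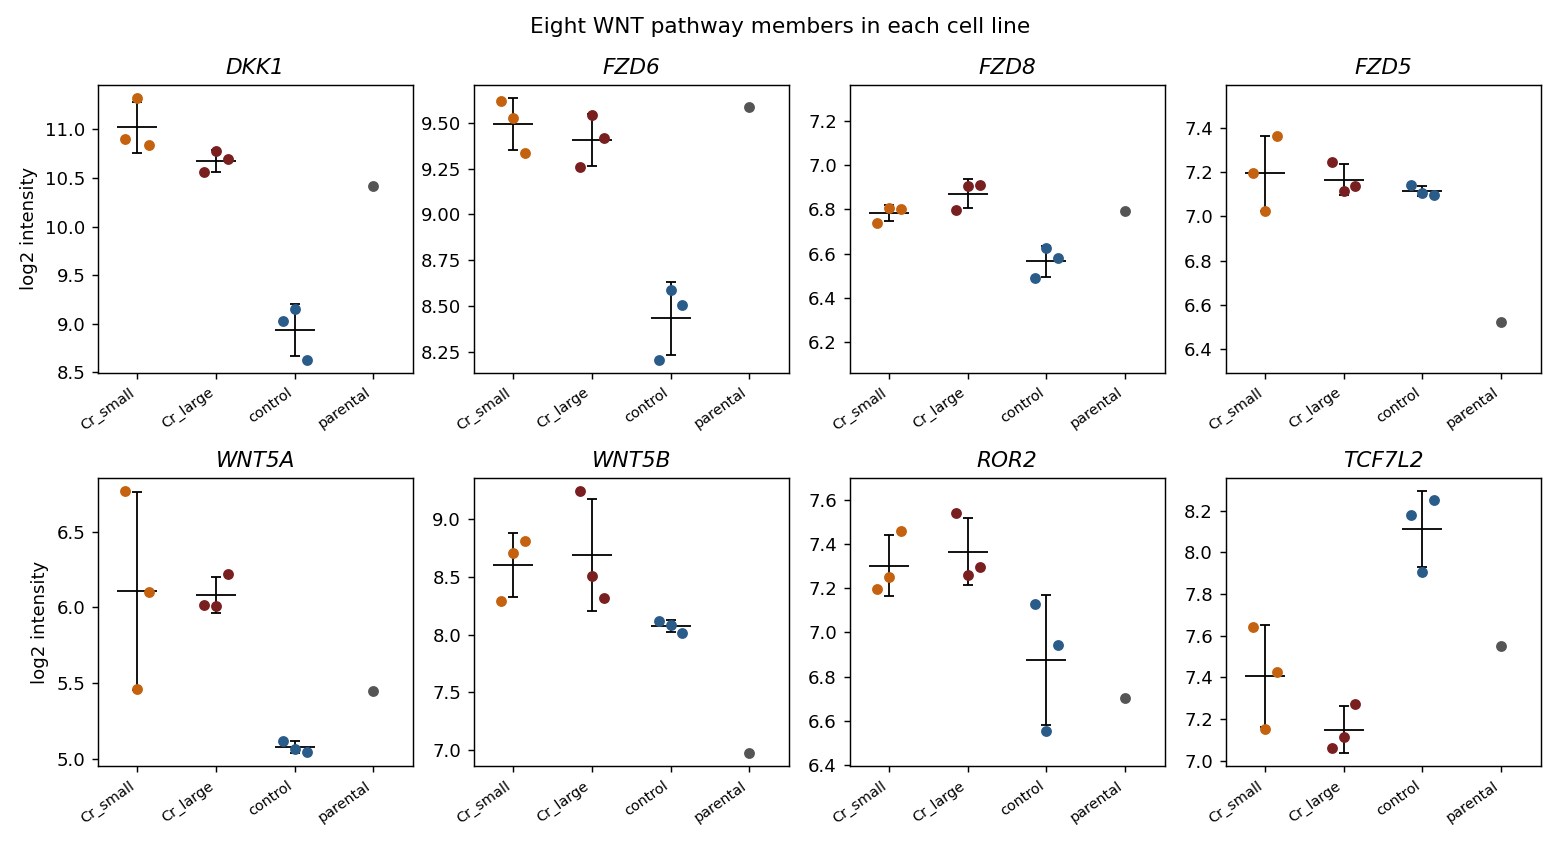
Log2 intensity of 8 members in each cell line, with Cr_small, Cr_large, control and parental samples from left to right. Points are single arrays, horizontal lines are group means and bars are SD (n = 3), and each panel has its own scale. DKK1, FZD6 and FZD8 are high in both Cr groups and in parental cells and low in control lines, whereas FZD5 and WNT5B are lowest in parental cells.

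Among the receptors, FZD6, a Frizzled known in mice for planar polarity of hair and inner ear cells, was higher in both Cr groups. It had log2 intensities of 9.62, 9.52 and 9.34 in Cr_small lines and 9.26, 9.54 and 9.41 in Cr_large lines, against 8.21, 8.59 and 8.51 in the control lines, with 9.58 in parental cells. All 6 Cr lines were above all 3 control lines and close to the parental level. The difference was 1.01 (SE 0.10), or 2.02-fold, with an adjusted p of 0.00113. CTHRC1, a secreted WNT cofactor that is not a member, differed by 0.24 (adjusted p = 0.0519).

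FZD8, another Frizzled receptor, changed by less than the 1.5-fold used to single out genes and is described after its values were seen. Its log2 intensities were 6.74, 6.81 and 6.80 in Cr_small lines, 6.80, 6.91 and 6.91 in Cr_large lines, 6.49, 6.63 and 6.58 in the control lines and 6.79 in parental cells. The groups did not overlap, and the difference of 0.26 (SE 0.046), or 1.20-fold, passed with an adjusted p of 0.00986. FZD5, a Frizzled receptor known in mice for a role in Paneth cells of the gut, was 7.20, 7.03 and 7.36 in Cr_small lines, 7.25, 7.12 and 7.14 in Cr_large lines and 7.14, 7.11 and 7.10 in the control lines, against 6.52 in parental cells. Cr and control lines overlapped (difference 0.06, adjusted p = 0.665), and all 9 lines were above the parental array.

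The 7 Frizzled receptors that passed in no comparison ranged from -0.29 for FZD7 to 0.54 for FZD3. FZD3, the closest relative of FZD6, was the most variable member and is described, as SFRP1 is further on, for its spread, a choice made after the values were seen. It had an SD of 0.55 over the 6 Cr lines. Its log2 intensities were 6.99, 6.13 and 6.86 in Cr_small lines, 5.55, 6.55 and 6.85 in Cr_large lines and 6.10, 5.64 and 6.11 in the control lines, with 6.82 in parental cells. The Cr lines thus spread on both sides of the control lines, and the interval of the difference ran from -0.17 to 1.25 (adjusted p = 0.342).

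Of the coreceptors, none passed. ROR2, a receptor of WNT5A, was nearest to the threshold and is described because its groups did not overlap, a choice made after its values were seen. It had log2 intensities of 7.20, 7.25 and 7.46 in Cr_small lines and 7.54, 7.26 and 7.30 in Cr_large lines, against 7.13, 6.55 and 6.94 in the control lines, with 6.71 in parental cells. Control line 1 was just below the lowest Cr line, and the other control lines lay further down. The difference was 0.46, or 1.37-fold (95% confidence interval 0.16 to 0.76, adjusted p = 0.0637). Its relative ROR1 differed the other way, by -0.28 (95% confidence interval -0.55 to -0.01, adjusted p = 0.191), with overlapping groups. LRP5, LRP6 and RYK lay between these values.

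Among the inhibitors, DKK1 had the largest change of all members. It had log2 intensities of 10.90, 11.32 and 10.84 in Cr_small lines and 10.56, 10.78 and 10.70 in Cr_large lines, against 9.03, 9.15 and 8.63 in the control lines, with 10.42 in parental cells. The lowest Cr line, at 10.56, was far above the highest control line, at 9.15. The difference was 1.91 (SE 0.14), or 3.77-fold, with an adjusted p of 0.000268. It was 4.24-fold for the Cr_small lines alone (adjusted p = 0.000492) and 3.34-fold for the Cr_large lines alone (adjusted p = 0.00126).

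Start site sequences are shown for the member with the largest rise, the ligand that rose and the member that fell. They run from 250 bases before to 50 bases after the start, taken from RefSeq for GRCh38.p14, and were chosen after the values were seen. DKK1 is at chr10:52314031-52314330 on the plus strand, WNT5A at chr3:55487257-55487556 on the minus strand, and TCF7L2 at chr10:112949997-112950296 on the plus strand. Capitals mark matches on either strand to letters that TCF and LEF proteins bind, which are CTTTGAA, its variant CTTTGAT, the form CTTTGTT and the form CTTTGTA, to the AP-1 letters TGANTCA, or to the TATA box letters TATAAA. No match overlaps another.
DKK1: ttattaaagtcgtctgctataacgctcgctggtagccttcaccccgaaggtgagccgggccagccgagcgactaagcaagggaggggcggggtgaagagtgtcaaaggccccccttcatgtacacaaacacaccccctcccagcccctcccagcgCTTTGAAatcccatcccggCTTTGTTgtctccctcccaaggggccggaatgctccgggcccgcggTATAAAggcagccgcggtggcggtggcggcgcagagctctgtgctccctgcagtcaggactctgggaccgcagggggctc
WNT5A: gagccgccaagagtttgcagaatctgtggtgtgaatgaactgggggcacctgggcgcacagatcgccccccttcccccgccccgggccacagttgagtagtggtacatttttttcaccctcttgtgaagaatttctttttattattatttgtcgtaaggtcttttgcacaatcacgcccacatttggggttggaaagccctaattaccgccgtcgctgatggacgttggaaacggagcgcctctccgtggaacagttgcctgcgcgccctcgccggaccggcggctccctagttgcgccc
TCF7L2: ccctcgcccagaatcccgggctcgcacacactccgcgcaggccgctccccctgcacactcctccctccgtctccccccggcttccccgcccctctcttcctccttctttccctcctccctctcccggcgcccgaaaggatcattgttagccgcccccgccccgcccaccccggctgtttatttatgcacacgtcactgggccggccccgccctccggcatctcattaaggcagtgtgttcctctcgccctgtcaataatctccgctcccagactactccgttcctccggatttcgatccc
The DKK1 window holds CTTTGAA and CTTTGTT with first bases at -95 and -76 from the start, and TATAAA at -30. The WNT5A and TCF7L2 windows hold none of these letters. Promoters were matched for 35 of the 50 members, and the TCF and LEF letters were found in 2 of them, DKK1 and WNT3 (5.71%), against 13.8% of all 35116 promoters. TATAAA was found in DKK1 and FZD8 (5.71%, against 11.5% of all promoters) and the AP-1 letters in none of the 35 (against 7.71%). The GC box GGGCGG was found in 30 of 35 (85.7%, against 45.0% of all promoters). A match describes the letters only. The GC box is not in capitals.

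The other DKK genes did not pass, and DKK3, a divergent family member, differed by -0.06 in the brighter cluster and by 0.02 in the dimmer. SFRP1, a secreted protein that binds WNT ligands, had a difference of 0.53 with a wide interval of -0.09 to 1.14 (adjusted p = 0.283). Its log2 intensities were 7.30, 7.24 and 8.17 in Cr_small lines, 7.46, 7.88 and 6.83 in Cr_large lines and 6.95, 7.08 and 6.83 in the control lines, with 7.22 in parental cells. The groups overlapped at Cr_large line 3. Over all 9 inhibitors other than DKK1, differences lay between -0.06 and 0.53, and 5 of the 10 inhibitors were below the overall median on every array.

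Within the cell, TCF7L2, a DNA-binding partner of β-catenin, was lower in Cr lines. It had log2 intensities of 7.64, 7.15 and 7.43 in Cr_small lines and 7.06, 7.11 and 7.27 in Cr_large lines, against 8.18, 7.91 and 8.25 in the control lines, with 7.55 in parental cells. The highest Cr line was below the lowest control line, and parental cells lay within the range of the Cr lines. The difference was -0.83 (SE 0.12), or 1.78-fold lower in Cr lines, with an adjusted p of 0.00414. CTNNB1, which encodes β-catenin itself, averaged 11.26 ± 0.21 in Cr lines (SD, n = 6) and 11.34 ± 0.091 in control lines (SD, n = 3), a difference of -0.08 (95% confidence interval -0.37 to 0.21, adjusted p = 0.777). AXIN2, a scaffold of the destruction complex and a common target of β-catenin, lay between 5.88 and 6.10 in Cr lines and between 5.86 and 5.95 in control lines (difference 0.08, 95% confidence interval -0.02 to 0.18, adjusted p = 0.305). LEF1, a relative of TCF7L2, was below the overall median on every array.

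In all 6 Cr lines against control, DKK1, FZD6, FZD8 and TCF7L2 passed under each of the 19 other settings with adjusted p-values. Neighbouring genes were counted as well. Among the 40 measured genes nearest to DKK1 on chromosome 10, 20 on each side, the median difference was 0.03, with 2 higher and 2 lower at the threshold. The same count around FZD6 on chromosome 8 was 3 higher and 2 lower (median 0.02), and around TCF7L2 it was 1 higher and 2 lower (median -0.01). Around FZD8 it was 0 higher and 5 lower (median -0.13), and around WNT5A on chromosome 3 it was 0 higher and 3 lower (median -0.05). Of all clusters, 5.33% were higher and 5.72% lower.

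The colony sizes were then compared, since the Cr_small and Cr_large lines came from the same exposure. Against the control lines, 4 of 50 members (8%) passed in Cr_small lines, against a background of 8.26%, and 4 (8%) in Cr_large lines, against 7.44%. Both comparisons use the same control lines. DKK1, FZD6 and FZD8 were higher and TCF7L2 lower in each, where the background was 3.79% higher and 4.47% lower for Cr_small lines and 3.33% higher and 4.11% lower for Cr_large lines. TCF7L2 differed by -0.71 (1.63-fold lower) in Cr_small lines, with an adjusted p of 0.0196, and by -0.96 (1.95-fold lower) in Cr_large lines, with an adjusted p of 0.00613. WNT5A differed by 1.03 in Cr_small and by 1.01 in Cr_large lines without passing (adjusted p = 0.0604 and 0.0703). None of these 4 passed the methods' t-test after adjustment in either comparison, where the counts of members were 0 in Cr_small lines and 1, WNT5A, in Cr_large lines. By limma, 2 members in Cr_small lines, DKK1 and FZD6, passed when control line 1, control line 3 or Cr_small line 3 was left out. In the Cr_large lines 7 passed without Cr_small line 2, which enters through the shared estimate of the spread. Shares of all clusters were not counted for these settings.

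Set directly against each other, Cr_large and Cr_small lines differed at the threshold in 0 of 50 members by limma, where the background was 0% of all clusters, and 2 members (4%) had an unadjusted p under 0.05, against 4.39% of all clusters. By limma these were AXIN2 (unadjusted p = 0.0365) and WNT11 (unadjusted p = 0.0472). The methods' t-test gave 2 members, AXIN2 and FZD10, at an unadjusted p under 0.05 and none after adjustment, so only AXIN2 was shared. Differences ran from -0.34 for FZD3 to 0.23 for WNT7B, with a median size of 0.07. The 95% confidence interval reached 0.21 to either side for the median member. DKK1 differed by -0.34 (95% confidence interval -0.72 to 0.04), with an adjusted p of 1.

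The lines were also set against the parental array, to see on which side of it they lay. That array holds cells that had not been through agar, while each line is 1 clone. It was tested in the shared fit, where the lone array was assumed to vary as the lines do, and both comparisons below use it. Control lines differed from parental cells in 2 of 50 members (4%), against a background of 1.49%, and both were lower (0.734% of all clusters). DKK1 was lower in control lines by 2.79-fold (difference -1.48, 95% confidence interval -2.02 to -0.94, adjusted p = 0.0287). FZD6 was lower in control lines by 2.22-fold (difference -1.15, 95% confidence interval -1.54 to -0.76, adjusted p = 0.0237). With only the groups compared in the fit neither passed (adjusted p = 0.112 for DKK1 and 0.11 for FZD6), and neither passed without control line 3 (0.0558 and 0.0639). DKK1 also did not pass without control line 1 (0.0747) or Cr_small line 1 (0.0514). Without Cr_small line 2 the count was 4, with FZD5 and ROR1 added, and the share of all clusters was not counted in that fit.

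Against the same parental array, the Cr lines differed by 0.43 for DKK1 (95% confidence interval -0.07 to 0.94, adjusted p = 0.370) and by -0.14 for FZD6 (95% confidence interval -0.50 to 0.23, adjusted p = 0.795). All 6 Cr lines were above parental cells for DKK1, and 1 of 6 was for FZD6. The 2 members that did pass in Cr lines against parental cells (4%, against a background of 4.93%) were WNT5B and FZD5, both higher (2.20% of all clusters). WNT5B was 3.18-fold higher in Cr lines (difference 1.67, SE 0.31, adjusted p = 0.0242) and FZD5 1.58-fold (difference 0.66, SE 0.11, adjusted p = 0.0161). The control lines differed from parental cells in the same direction, by 1.10 for WNT5B (adjusted p = 0.192) and 0.59 for FZD5 (adjusted p = 0.0582). With only the groups compared in the fit neither passed in the Cr lines (adjusted p = 0.0695 and 0.0532).

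**Figure D3:**
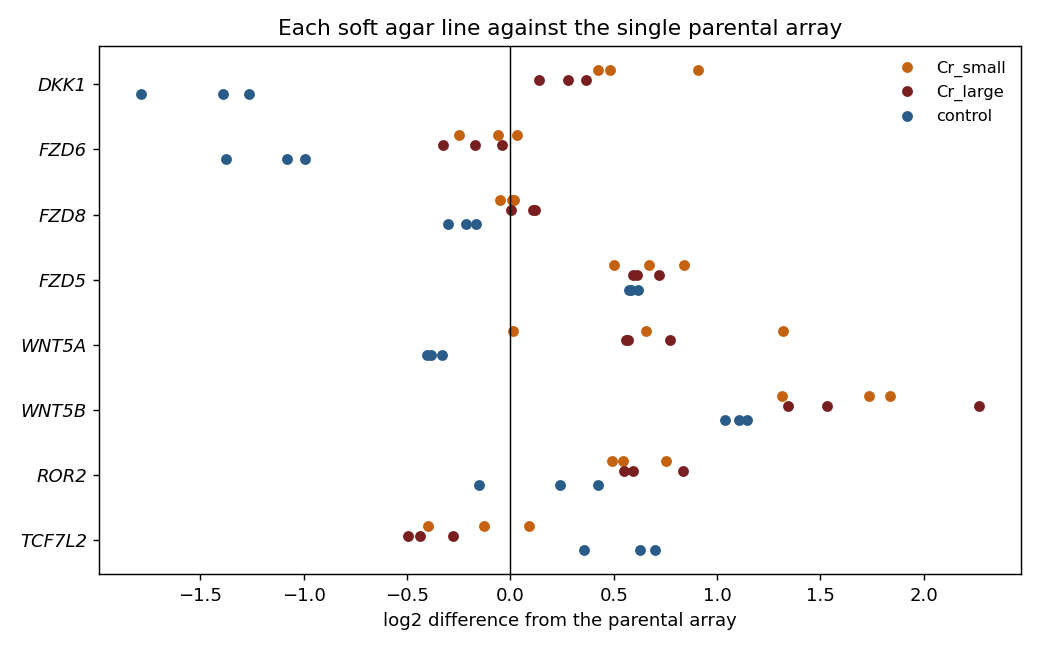
Difference in log2 intensity of each soft agar line from the parental array, which is the line at 0, for 8 members. Each point is 1 line, with Cr_small above Cr_large above control lines. Control lines are left of 0 for DKK1 and FZD6 where Cr lines are near or right of it, and all lines are right of 0 for FZD5 and WNT5B.

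For TCF7L2, all 3 control lines were above and 5 of 6 Cr lines below the parental level. Control lines averaged 0.56 above parental cells (adjusted p = 0.258), and Cr lines differed by -0.27 (adjusted p = 0.537), so the change between Cr and control lines was split over differences that each did not pass. WNT5A was likewise split, with 0.65 in Cr lines (adjusted p = 0.437) and -0.37 in control lines (adjusted p = 0.848). ROR1 was higher than in parental cells in all 9 lines, by 0.67 in Cr lines (adjusted p = 0.0830) and by 0.94 in control lines (adjusted p = 0.0634).

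The spread among the Cr lines differed between members. The median SD over the 6 Cr lines was 0.128 for the 50 members and 0.098 for all clusters. All clusters include dim and unnamed ones, and the constant of the normalization shrinks the spread of dim clusters. Dim members had a small SD too, such as 0.0325 for SFRP2 and 0.0358 for DKK2. Members were not compared with clusters of like level. FZD3 (SD 0.55), SFRP1 (0.48), WNT5A (0.42) and WNT5B (0.36) were the most variable. Their SD lay at the 99.4th, 99.0th, 98.5th and 97.3rd percentile of all clusters. The line that was high was not the same in these genes. Cr_small line 1 was highest for WNT5A and FZD3, Cr_large line 1 for WNT5B, and Cr_small line 3 for SFRP1.

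Other genes of the pathway were counted from 9 lists, with 125 of 130 listed genes measured and no member among them. In Cr against control lines 17 of 125 (13.6%) passed, against the background of 11.0%, with 5 higher and 12 lower. The count was 7 without control line 1 and 5 without control line 3. The share of all clusters that passed was not counted in those fits, so the lower counts cannot be read as particular to the pathway. Of the secretion genes 0 of 2 passed, of the R-spondin and LGR genes 0 of 9, and of the cadherins and catenins 0 of 9. Of the Dishevelled and destruction complex genes 2 of 18 passed, both lower, and of the calcium branch 3 of 17, all lower. Of the 14 other surface and secreted modulators 1, APCDD1, was higher and 1, IGFBP4, lower. Some genes stand in more than 1 list, and APCDD1 is counted again among the target genes of β-catenin below. Over all clusters 5.33% were higher and 5.72% lower.

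Among 29 measured target genes of β-catenin 4 passed, all higher, where 5.33% of all clusters were higher. The median difference of the 29 was 0.13. In Cr_large lines alone 2 were higher and 1 lower, where 3.33% of all clusters were higher and 4.11% lower. The means of EDN1, SNAI2 and TBX3 over the 6 Cr lines differed the other way, by -0.70, -0.66 and -0.61. Cr and control lines overlapped for SNAI2, with an SD of 0.77 in Cr lines, and for TBX3, but not for EDN1. These genes did not pass by limma (adjusted p = 0.102 for EDN1, 0.419 for SNAI2 and 0.0634 for TBX3) and are named after their values were seen. L1CAM, a cell adhesion molecule, averaged 9.41 ± 0.13 in Cr lines and 7.21 ± 0.19 in control lines, 4.59-fold higher with an adjusted p of 2.19e-05. CCND1, which encodes cyclin D1, averaged 10.06 ± 0.28 in Cr lines and 8.94 ± 0.30 in control lines, 2.16-fold higher with an adjusted p of 0.00693. Parental cells were at 8.99 for L1CAM, above the control lines, and at 7.30 for CCND1, below them. ID2, an inhibitor of helix-loop-helix factors, was 1.96-fold higher (adjusted p = 0.0415) and passed in 9 of 19 other settings. APCDD1, a membrane inhibitor of WNT signals, was the fourth, with a difference of 0.26 (adjusted p = 0.0461), and passed in 7 of 19. Parental cells were at 7.13 for ID2 and 5.98 for APCDD1, within the range of the Cr lines and above all control lines in both. MYC, another target, differed by -0.02 (adjusted p = 0.882), and SP5, RNF43, NKD1, LGR5, NOTUM and ZNRF3, which many cells use as feedback or readout genes of β-catenin, did not pass. RNF43, NKD1 and LGR5 were below the overall median on every array, so a change in them could hardly be seen. ZNRF3 differed by 0.28 (adjusted p = 0.0663). Its lowest Cr line, at 7.153, was just above the highest control line, at 7.145.

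Of 18 planar cell polarity genes 3 passed, all lower, where 5.72% of all clusters were lower. PRICKLE1, a core polarity protein, averaged 6.94 ± 0.43 in Cr lines and 8.32 ± 0.10 in control lines, 2.60-fold lower in Cr lines with an adjusted p of 0.00401. PRICKLE2 was 2.36-fold lower (adjusted p = 0.0143) and DAAM1, a formin that links Dishevelled to RHOA, 1.74-fold lower (adjusted p = 0.00683). Parental cells were at 8.93 for PRICKLE1 and 7.83 for DAAM1, above both groups, and at 6.75 for PRICKLE2, above all Cr lines and below all control lines. IGFBP4, a secreted binding protein that can bind LRP6 and FZD8, was 2.87-fold lower (adjusted p = 0.0245). Of the 15 nuclear cofactors and corepressors 1 was higher and 3 lower, where 5.33% of all clusters were higher and 5.72% lower. The corepressor TLE3 was 1.53-fold lower (adjusted p = 0.00188), the coactivator EP300 1.55-fold lower (adjusted p = 0.0131), PYGO2 lower and CTNNBIP1 higher. Parental cells were at 7.35 for TLE3, within the range of the Cr lines, and at 8.075 for EP300, within that of the control lines. PRICKLE2, EP300 and IGFBP4 did not pass without control line 1 or control line 3, and IGFBP4 also without Cr_large line 2 or with the methods' t-test after adjustment. PYGO2 passed in 7 and CTNNBIP1 in 14 of 19 other settings.

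**Figure D4:**
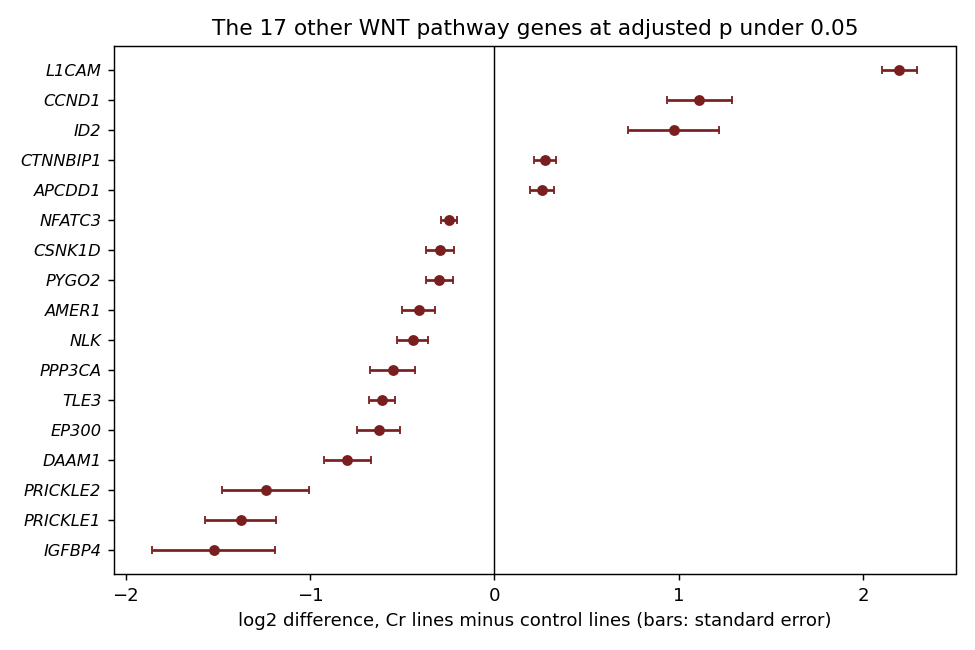
Difference in log2 intensity between the 6 Cr lines and the 3 control lines for the 17 other WNT pathway genes that passed the adjusted threshold of 125 measured. Points are differences and bars are standard errors. L1CAM, CCND1, ID2, CTNNBIP1 and APCDD1 are right of 0 and the 12 others are left of it.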

How the data were processed

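RNA of 10 samples was measured on arrays, and the deposited intensity values were made by the authors with RMA16 in GeneSpring, which corrects background, normalizes by quantiles and sums probes. They are linear, from 20.0 to 16979.5, and their log2 was taken before all steps. RMA16 adds a constant of 16 that shrinks the folds of dim genes, and precision is limited by how many arrays there were. An annotation table of the array gave 1 gene symbol to 19310 of 28869 clusters, several to 1752 and none to 7807. A gene with several clusters was represented by the brightest.

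A linear model with a mean per group was fitted over all clusters with limma 3.58.1 in R 4.3.3 (6 residual and 1.96 prior degrees of freedom), after a test on simulated data. Contrasts set both Cr groups together and each alone against control, Cr_large against Cr_small, and control and both Cr groups together against parental. The Benjamini-Hochberg adjustment ran over all clusters, with 0.05 as threshold. Values in every array were to be given for members that passed in any comparison with at least 1.5-fold, or whose Cr and control lines did not overlap and differed by 1.5-fold, and pathway genes were to be named at the same fold. The members, lists and rules were chosen with earlier results of these data known. Alternatives were the unpaired t-test of the methods, another moderation, only the groups compared, filters on dim or unnamed clusters, renormalization, median centring, subtraction of the constant, the mean over clusters, a block on line numbers and leaving out each line. The t-test without adjustment was added after the data were seen. Line numbers in the titles come with no shared origin. Plots used matplotlib 3.10.9 and Python 3.11.15.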

Additional observations from a re-analysis of the deposited data

Results flagged for a closer look

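Over the 6 Cr lines, 7 of 50 members had 1 line that stood apart from the others by a gap past the critical value of the Dixon test, read against the whole range. Chance alone marks about 1 in 20 groups in this way, and 7.06% of all clusters were marked. AXIN1 was 7.67 in Cr_large line 1, with the next line at 7.12. LRP6 was 9.02 in the same line, with the next at 8.67, and TCF7L1 was 7.35, with the next at 6.85. WNT10B was lowest in that line at 6.07, with the next at 6.29. Cr_large line 1 was the line standing apart for 4 of these 7 members and for 27.3% of the marked clusters. KREMEN1 was lowest in Cr_small line 2 at 6.07, with the next at 6.57. WNT8A was highest in Cr_small line 2 at 5.40, with the next at 5.24, and WNT2 was highest in Cr_large line 2 at 5.08, with the next at 4.79, both below the overall median. None of the 7 passed the test in any comparison.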

How the results depend on the processing

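None of the 29 gene differences that were recomputed changed direction. In Cr against control 5 members passed, 4 to 5 with a line left out and 6 with the replicate block, and 10 passed the t-test without adjustment. The other pathway genes numbered 17, with 9 by the t-test after and 37 without adjustment, 15 with the block and 5 to 18 with a line left out. By limma, 24.4% of all clusters had an unadjusted p under 0.05 in this comparison. Shares of all clusters were counted for the main fit only, so counts in the other settings here have no background beside them. In Cr_small against control 4 members passed, 0 by the adjusted t-test and 2 to 4 with a line left out. In Cr_large against control 4 passed, 1 (WNT5A) by the adjusted t-test, 8 without adjustment and 4 to 7 with a line left out. Cr_large against Cr_small gave 0 in all but the unadjusted t-test, which gave 2. In control against parental 2 passed, 0 with only the groups compared, 4 with only clusters of 1 symbol, 4 with the mean over clusters and 0 to 4 with a line left out. In Cr against parental 2 passed, 0 with only the groups compared and 2 to 3 with a line left out. The cause was not tested. ROR2 passed in 7 of 19 settings (adjusted p from 0.04 to 0.148) and WNT5B against control in 0. The replicate block pairs lines by number alone, and deviations of same-numbered lines correlated between -0.15 and 0.10, and 3 of 9 lines correlated best with one of their own number. Folds of members below the overall median are shrunk by the constant that RMA16 adds.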
